A study of Mus musculus with 217 samples.

Results

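The genes described here are 33 calcium channels, pumps and calcium kinases, measured by RNA sequencing in the striatum and cortex of a mouse model of Huntington's disease. They were taken by name from 54532 annotated genes: the pore subunits of the voltage-gated calcium channels (Cacna1a to Cacna1e and Cacna1g to Cacna1i), their beta subunits (Cacnb1 to Cacnb4) and alpha2delta subunits (Cacna2d1 to Cacna2d4), the ryanodine receptors (Ryr1 to Ryr3), the IP3 receptors (Itpr1 to Itpr3), the SERCA pumps (Atp2a2, Atp2a3), the plasma membrane calcium pumps (Atp2b1 to Atp2b4), the 4 CaMKII subunits (Camk2a, Camk2b, Camk2d, Camk2g) and the kinase Camk4. LacQ140 mice are C57BL/6 animals with 1 Htt allele that carries lac operator sites and an expanded glutamine tract (an allele named 140Q in the labels). All mice, the wild-type controls included, also carry a lac repressor transgene (LacIR) driven by the ubiquitous beta-actin promoter, so that the mutant allele is repressed unless the sugar analogue IPTG is given by mouth. LacQ140 and WT + IPTG mice had IPTG from embryonic day 5 onwards, LacQ140_A and WT mice never had it, and in LacQ140_2M and LacQ140_8M mice withdrawal came at an age of 2 or 8 months. Tissue was collected at 6 months and, from other mice, at 12 months (LacQ140_8M at 12 months only). Each group had 10 mice, 5 of each sex, with both tissues taken from the same animals, except that 12-month striatum had 9 libraries in WT, LacQ140 and LacQ140_8M. The counts do not separate mutant from wild-type Htt transcripts.

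A neuron at rest keeps cytosolic calcium very low. Depolarisation opens voltage-gated channels, whose pore subunit passes the ions while the beta and alpha2delta subunits set how many channels reach the membrane and how they gate. Ryanodine and IP3 receptors release calcium from the endoplasmic reticulum, SERCA pumps refill that store, and the plasma membrane pumps expel calcium from the cell. CaMKII and CaMKIV are kinases that turn a calcium rise into phosphorylation at the synapse and in the nucleus. In spiny projection neurons, the principal cells of the striatum, this machinery shapes the response to cortical input and to dopamine.

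The 217 libraries (107 striatum, 110 cortex) held 33292056 to 68038830 counts each, and all 33 genes passed the minimum of 1 count in each tissue and age. Levels are given in CPM, counts scaled to library size by the TMM method. Total Htt in striatum at 6 months was 116.1 ± 14.8 CPM in WT, 111 ± 11.5 in WT + IPTG, 102 ± 10.9 in LacQ140, 88.9 ± 8.89 in LacQ140_2M and 87.7 ± 8.32 in LacQ140_A (SD, n = 10 each). At 12 months it was 134 ± 12, 146 ± 11.2, 111 ± 10.9, 100 ± 11.1 and 93.4 ± 15.9 CPM in the same order (n = 9, 10, 9, 10 and 10), and 111 ± 8.15 CPM in LacQ140_8M (n = 9). The 10 spiny projection neuron markers summed to 5040 to 12000 CPM in every striatal library and to at most 748 CPM in any cortical one. The level of markers of neighbouring tissue varied among striatal libraries. The 7 cortical projection neuron markers summed to 17.1 to 136 CPM in 6-month striatum and to 20.7 to 354 CPM at 12 months, against 403 to 1650 CPM in cortex, and no marker was at 0 in all libraries of a tissue. The striatal library with 354 CPM was LacQ140 mouse M2 at 12 months (the next had 144 CPM), and results that rest on it are given below without it. Library M5 of WT + IPTG at 6 months stood apart in choroid plexus markers, with a sum of 704 CPM against at most 69.4 CPM in the other 6-month striatal libraries. The 6-month and 12-month samples were also separate batches in the labels, so age and batch cannot be told apart.

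Promoter sequences are shown for 3 genes that were called at both ages in striatum, to set 2 that fell beside 1 that rose. They are RefSeq reference sequences (GRCm38.p6) from 250 bases before to 50 bases after an annotated transcription start, 5′ to 3′ on the gene's strand. Of the 33 genes, 22 had an entry in the table used. Capitals mark matches on either strand to the motifs searched: the cAMP response element TGACGTCA, its 5-base part TGACG (which lies within the former), the GC box GGGCGG, the EGR motif GCGTGGGCG, and TATAAA.
Ryr1, chr7:29125102-29125401, minus strand: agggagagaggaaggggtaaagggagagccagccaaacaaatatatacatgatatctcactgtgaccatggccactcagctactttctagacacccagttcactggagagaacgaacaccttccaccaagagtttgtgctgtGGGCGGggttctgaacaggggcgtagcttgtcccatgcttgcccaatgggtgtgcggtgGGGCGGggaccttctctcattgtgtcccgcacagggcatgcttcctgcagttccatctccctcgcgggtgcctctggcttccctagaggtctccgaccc
Atp2b1, chr10:98914392-98914691, plus strand: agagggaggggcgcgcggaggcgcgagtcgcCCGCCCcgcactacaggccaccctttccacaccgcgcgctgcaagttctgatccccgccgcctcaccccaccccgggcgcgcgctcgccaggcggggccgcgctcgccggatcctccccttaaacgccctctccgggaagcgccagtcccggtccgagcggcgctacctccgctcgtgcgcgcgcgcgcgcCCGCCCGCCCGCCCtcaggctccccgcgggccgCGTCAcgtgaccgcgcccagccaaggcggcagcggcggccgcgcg
Atp2b4, chr1:133753698-133753997, minus strand: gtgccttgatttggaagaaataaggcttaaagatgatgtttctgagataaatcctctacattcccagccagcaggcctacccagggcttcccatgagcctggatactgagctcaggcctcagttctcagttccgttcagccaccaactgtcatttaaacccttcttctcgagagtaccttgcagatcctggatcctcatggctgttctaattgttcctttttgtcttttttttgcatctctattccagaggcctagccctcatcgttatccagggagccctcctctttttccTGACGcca

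The 3 windows differ in base composition. That of Atp2b1 is 79.3% GC with 54 CG dinucleotides and 4 GC box matches, that of Ryr1 is 56.7% GC with 9 CG dinucleotides and 2 GC box matches, and that of Atp2b4 is 47.7% GC with 4 CG dinucleotides and none, against a median of 52.7% GC over all 32851 promoters of the table. Atp2b1 and Atp2b4 each hold 1 match to TGACG. The GC box occurs in 35.7% of all promoters, TGACG in 20.8%, TATAAA in 13.6%, TGACGTCA in 1.79% and the EGR motif in 0.612%. Over the 33 promoter entries of the calcium genes, the GC box was found in 22, TGACG in 7, TATAAA in 1, and the other 2 motifs in none. The printed starts lie 28 bases (Ryr1), under 300 bases (Atp2b1) and 47294 bases (Atp2b4) downstream of the outermost annotated start of the gene. Atp2b4 spans 133699457 to 133801041 on chromosome 1, Ryr1 spans 29003344 to 29125179 on chromosome 7 and Atp2b1 spans 98914406 to 99026143 on chromosome 10.

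The genes first had to be placed in the normal brain. In 6-month WT + IPTG mice, levels per kilobase of exon ranged from 517 CPM per kb for Camk2a in cortex to 0.267 CPM per kb for Cacna2d4, also in cortex. In striatum the leading genes were Camk2a (176 CPM per kb), the SERCA pump Atp2a2 (113), Camk4 (107) and Camk2b (105), followed by the pump Atp2b1 (53.4), the IP3 receptor Itpr1 (46.7) and the pump Atp2b2 (44.9). Ryr1, best known as the calcium release channel of skeletal muscle, was a low-level transcript at 1.57 CPM per kb in striatum and 0.326 in cortex.

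Striatum and cortex differed for 27 of the 33 genes at 6 months (28.3% of all genes tested were called, 13.7% higher and 14.6% lower in striatum, and 49.9% of genes above 1 CPM). A gene was called when edgeR's quasi-likelihood test gave a Benjamini-Hochberg adjusted p below 0.05 over all genes and the fold change was at least 20%. Higher in striatum were 16: Ryr3 (log2 fold change 2.865 ± 0.127 SE), Ryr1 (2.24 ± 0.142), Cacna2d2 (1.95 ± 0.0855), Cacna2d3 (1.66 ± 0.0636), the T-type channel Cacna1h (1.425 ± 0.0945), Cacnb2, Atp2b1, Camk4, Camk2b, Cacna2d4, Cacna1c, Itpr1, Cacna1e, Cacnb1, Atp2a2 and Cacna1i (0.28, and 0.25 to 0.26, under the size bound, in DESeq2, with its size factors and with filterByExpr). Lower were 11: the T-type channel Cacna1g (-2.005 ± 0.117), the plasma membrane pump Atp2b4 (-1.83 ± 0.113), Camk2a (-1.57 ± 0.0651), Camk2g (-1.30 ± 0.0436), Camk2d (-1.24 ± 0.113), Cacnb3, Ryr2, Cacna2d1, Atp2a3, Cacna1a and Itpr3. The remaining 6, Cacna1b, Cacna1d, Atp2b3, Cacnb4, Itpr2 and Atp2b2, had log2 fold changes between -0.26 and 0.03. At 12 months 29 genes were called (47.6% of all genes, 23.3% higher and 24.2% lower, and 84.7% of genes above 1 CPM, near the 87.9% of the calcium genes), 27 of them higher in striatum. At that age the slope of log2 level on log2 transcript length was 0.164 to 0.482 over the striatal libraries and -0.55 to -0.0992 over the cortical ones, so that region and a bias against long transcripts cannot be told apart, and the 6-month values, where the slopes overlapped, are used below.

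The main comparison asked which of these genes change when mutant Htt is expressed throughout life, with IPTG in both arms. In 6-month striatum, 6 of 33 genes were called in LacQ140 against WT + IPTG (18.2%, against 7.93% of all genes tested, 3.97% higher and 3.96% lower, and 15.5% of genes above 1 CPM). The share was thus near that of expressed genes in general, and without LacQ140 F4 the count was 3. Ryr1, Itpr1, Atp2a2 and Atp2b1 fell, and Cacna1b and Atp2b4 rose. The median log2 fold change of the 33 genes was -0.05, that of all genes 0.

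By 12 months, 17 of 33 genes were called in striatum (51.5%, against 9.44% of all genes, 4.58% higher and 4.86% lower, and 17.8% of genes above 1 CPM). Of these, 14 fell and 3 rose, and the median over all 33 was -0.19. The genes called at both ages were Ryr1, Itpr1, Atp2a2, Atp2b1 and Atp2b4, which are 83.3% of the 6-month and 29.4% of the 12-month calls. A plot of both ages for all 33 genes shows the spread.

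**Figure D1:**
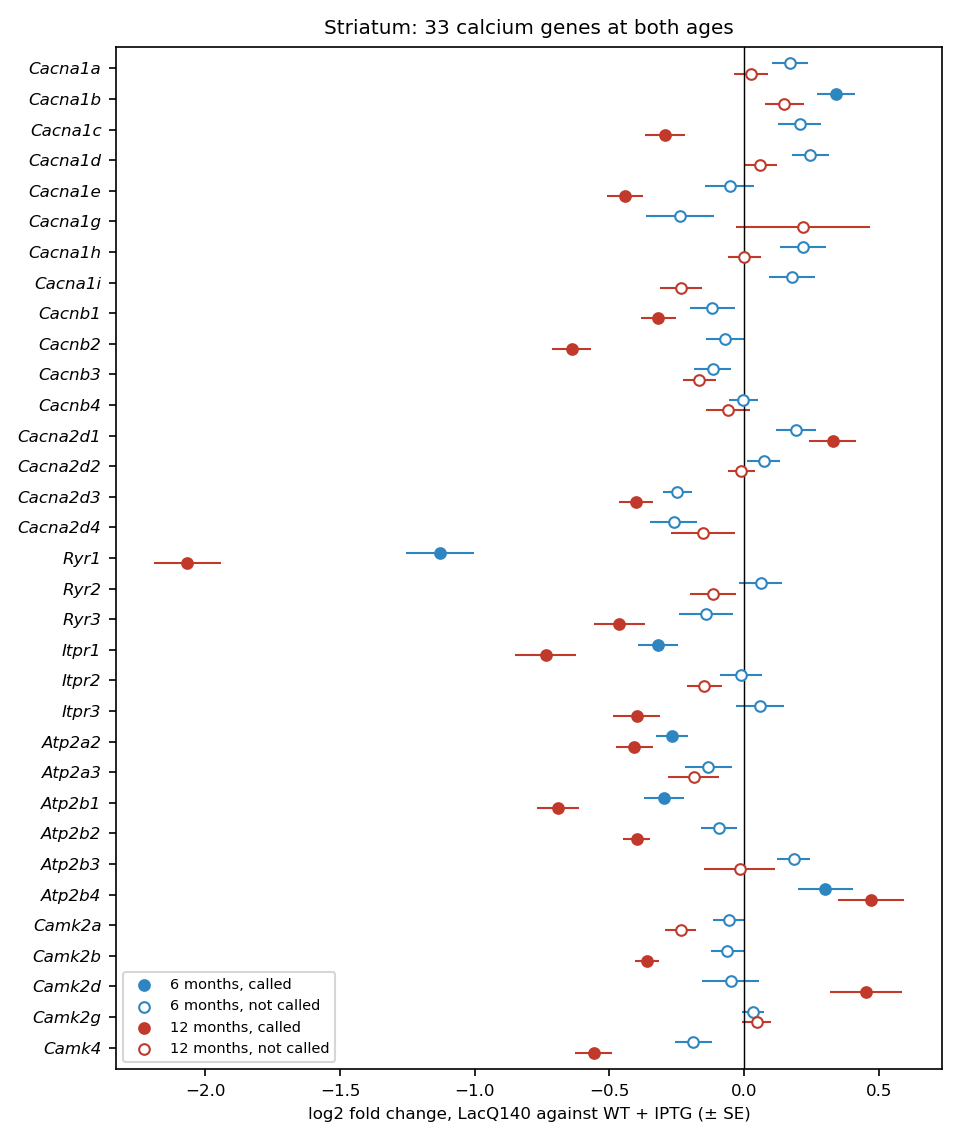
Log2 fold change of LacQ140 against WT + IPTG in striatum for each of the 33 genes (rows), with 6 months in blue and 12 months in red; bars are ± 1 SE and filled points were called. Ryr1 lies farthest to the left at both ages (-1.13 and -2.07), and 14 genes fell at 12 months against 4 at 6 months.

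In bulk tissue, fewer cells of a type and less RNA per cell cannot be told apart. Beside these results, 9 of the 10 spiny projection neuron markers fell in LacQ140 striatum at each age (median log2 fold change -0.37 at 6 months and -0.84 at 12 months). Their summed level was 5560 to 7250 CPM in LacQ140 against 6870 to 10200 CPM in WT + IPTG at 6 months, and 5040 to 6210 against 8770 to 12000 CPM at 12 months. Glial markers were also lower at 6 months, with 3 of 5 oligodendrocyte, 3 of 5 microglia and 1 of 5 astrocyte markers called, and at 12 months with 2, 1 and 0. At 6 months the oligodendrocyte markers summed to 9170 to 11500 CPM in LacQ140 and to 12000 to 15500 CPM in WT + IPTG, the microglia markers to 347 to 418 against 405 to 496 CPM, and the astrocyte markers to 919 to 1100 against 1090 to 1390 CPM. At 12 months these sums were 7970 to 13100 against 10600 to 14200, 372 to 420 against 404 to 469, and 887 to 1070 against 886 to 1130 CPM. Of 4 thalamus markers 3 fell at 6 months and 1 at 12 months, with sums of 55.6 to 68.7 against 65.3 to 107 CPM and of 56 to 74.1 against 69.7 to 107 CPM. Of 4 choroid plexus markers 2 fell at each age, with sums of 7.95 to 69.4 against 5.99 to 704 CPM (medians 24 and 23.9) and of 7.11 to 21.6 against 6.09 to 403 CPM (medians 11.9 and 20). Without WT + IPTG M5 none was called at 6 months, and without WT + IPTG F5 or M2 1 was at 12 months. Of 4 endothelial markers none was called at 6 months and 1 fell at 12 months, with median sums of 174 against 209 CPM and of 180 against 209 CPM and overlapping ranges. Of 6 interneuron markers none was called at 6 months and 1 fell at 12 months, with sums of 353 to 450 against 327 to 447 CPM and of 329 to 456 against 375 to 475 CPM. Pvalb, an interneuron gene that was listed with the calcium buffers, fell at 6 months (-0.66, SE 0.223, adjusted p = 0.039). The 7 cortical projection neuron markers at 6 months (1 rose, 2 fell) summed to 22.8 to 96.6 against 18.1 to 102 CPM, and their 12-month values stand beside the genes that rose. The part of these shifts in the values of the calcium genes was not tested.

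Among the calcium release channels of the endoplasmic reticulum, Ryr1 changed most. At 6 months it was at 24.1, 35.7 and 50.1 CPM (lowest, median, highest) in WT + IPTG and at 10.2, 15.4 and 22.5 CPM in LacQ140. No LacQ140 library reached the lowest control. It fell by 1.13 on the log2 scale (SE 0.127, adjusted p = 1.1e-09), to 0.458 of the control level. At 12 months WT + IPTG libraries were at 22.8, 33.1 and 46.7 CPM and LacQ140 libraries at 6.28, 7.93 and 10.4 CPM. The groups were again apart, and Ryr1 fell by 2.07 (SE 0.125, adjusted p = 1.4e-21), to 0.239 of control. An antisense gene, Gm26604, shares 3.96% of the Ryr1 exon length, and the strandedness of the counting is not given in the sources used here.

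Itpr1, the main neuronal IP3 receptor, was at 735, 847 and 1020 CPM in 6-month WT + IPTG and at 572, 663 and 801 CPM in LacQ140, where the ranges overlapped. It fell by 0.32 (SE 0.0754, adjusted p = 0.0018). At 12 months the values were 790, 1030 and 1220 CPM against 440, 657 and 764 CPM, with no overlap, and the fall was 0.74 (SE 0.112, adjusted p = 4.7e-07). Ryr3 and Itpr3 were called at 12 months only. Ryr3 went from 97.7, 112 and 136 CPM in WT + IPTG to 69.6, 83.4 and 102 CPM in LacQ140 (-0.46 on the log2 scale, SE 0.0948, adjusted p = 0.00015), and the low-level Itpr3 from 6.37, 8.13 and 10.5 CPM to 4.79, 6.01 and 7.47 CPM (-0.40, SE 0.0873, adjusted p = 0.00043). Both pairs of ranges overlapped. Ryr2, the cardiac form, and Itpr2 were called at neither age, with log2 fold changes between -0.15 and 0.06.

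The pumps did not move as 1 class. Atp2a2 (SERCA2), which loads the endoplasmic reticulum, was at 595, 686 and 804 CPM in 6-month WT + IPTG and at 479, 576 and 645 CPM in LacQ140 (a fall of 0.267 on the log2 scale, SE 0.0599, adjusted p = 0.001). The 12-month libraries were at 637, 830 and 878 against 503, 637 and 666 CPM (-0.41, SE 0.0693, adjusted p = 5.7e-06). The ranges overlapped at both ages, and the 6-month value fell under the size bound with WT and WT + IPTG pooled (-0.22) and without any 1 of 6 single libraries (-0.26 to -0.24). Atp2a3 (SERCA3) was called at neither age. The plasma membrane pump Atp2b1 was at 703, 784 and 985 CPM in 6-month WT + IPTG and at 497, 655 and 784 CPM in LacQ140 (-0.30, SE 0.0755, adjusted p = 0.0039), with overlap, and without LacQ140 F4 the value was -0.26, under the size bound. At 12 months its ranges parted, at 778, 972 and 1080 CPM against 481, 627 and 683 CPM (-0.69, SE 0.0793, adjusted p = 2e-10). Atp2b2 fell at 12 months, again without overlap, from 645, 752 and 824 CPM to 508, 555 and 625 CPM (-0.40, SE 0.0512, adjusted p = 5.9e-09). Atp2b3 was called at neither age, although at 6 months (0.18, adjusted p = 0.04) it passed on p and missed on size.

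The fourth plasma membrane pump, Atp2b4, went the other way. It was at 39.8, 55.7 and 69.6 CPM in 6-month WT + IPTG and at 55.9, 64.9 and 79.3 CPM in LacQ140 (higher by 0.30 on the log2 scale, SE 0.102, adjusted p = 0.041). The 12-month libraries were at 42.1, 56.8 and 76.8 CPM against 59.6, 66.2 and 133 CPM (0.47, SE 0.123, adjusted p = 0.0036). The groups overlapped at both ages, and the 6-month call was lost in DESeq2 (adjusted p = 0.056) and without any 1 of 11 single libraries. The library at 133 CPM was LacQ140 M2, the one with the most cortical marker RNA, and without it the 12-month log2 fold change was 0.34 (adjusted p = 0.037).

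The plot of striatal levels by library covers 6 of these genes.

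**Figure D2:**
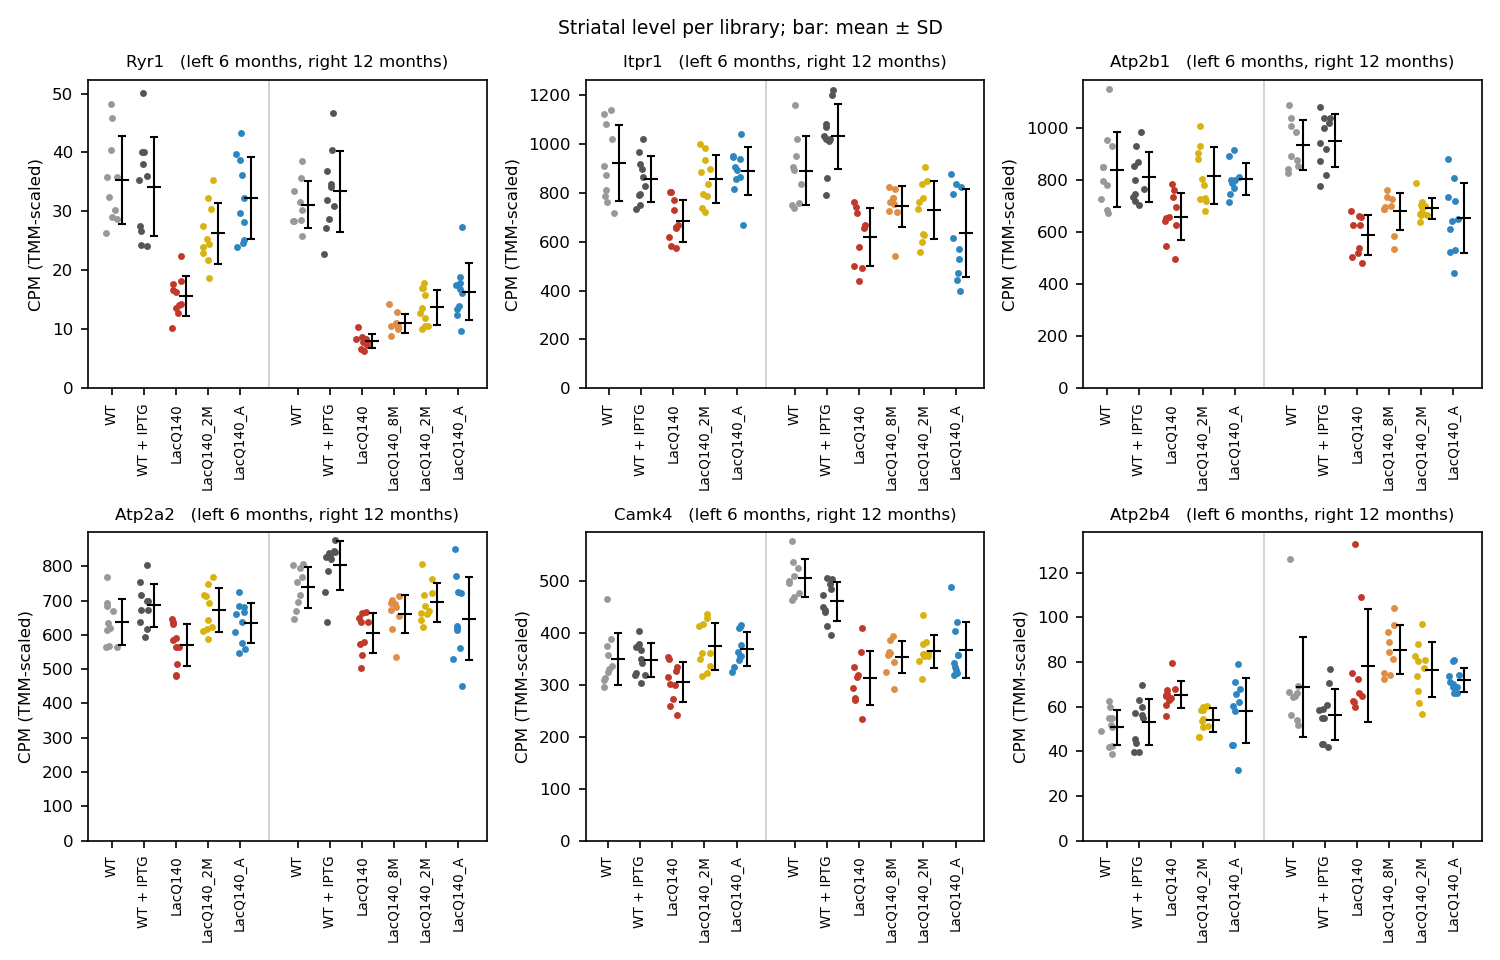
TMM-scaled CPM (y axis, from 0) of Ryr1, Itpr1, Atp2b1, Atp2a2, Camk4 and Atp2b4 in each striatal library (points) by group, with 6 months to the left of the grey line and 12 months to the right; black bars are mean ± SD of 9 or 10 mice. At 12 months all LacQ140 libraries lie below all WT + IPTG libraries for Ryr1 (6.28 to 10.4 against 22.8 to 46.7 CPM), while for Atp2b4 they overlap.

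Of the 8 pore subunits, 1 was called at 6 months and 2 at 12 months. The N-type channel Cacna1b, which triggers transmitter release at many terminals, was at 45.5, 56.9 and 65.9 CPM in 6-month WT + IPTG and at 64.2, 72.3 and 80.2 CPM in LacQ140, so the groups met only at their edges (0.34 on the log2 scale, SE 0.0707, adjusted p = 0.00039). It was not called at 12 months (0.15, SE 0.0718, adjusted p = 0.19). The R-type channel Cacna1e fell at 12 months, from 171, 210 and 243.5 CPM to 129, 163 and 185 CPM (-0.44, SE 0.0673, adjusted p = 5.3e-07), and the L-type channel Cacna1c from 76.4, 95.3 and 108.4 CPM to 63.8, 78.8 and 91.5 CPM (-0.29, SE 0.075, adjusted p = 0.003). Both overlapped with control, and Cacna1c fell under the size bound with the transcript length slope as a covariate (-0.26) and with WT and WT + IPTG pooled (-0.25). The P/Q-type channel Cacna1a, the L-type Cacna1d and the T-type Cacna1g, Cacna1h and Cacna1i were called at neither age, although Cacna1d at 6 months (0.25, adjusted p = 0.0094) and Cacna1i at 12 months (-0.23, adjusted p = 0.028) passed on p and missed on size.

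None of the 8 auxiliary subunits was called at 6 months and 4 were at 12 months. Cacnb2 was at 74.6, 84.1 and 102 CPM in WT + IPTG and at 48.4, 55.2 and 62.8 CPM in LacQ140, with no overlap, and fell by 0.64 (SE 0.0715, adjusted p = 8.2e-11). At 6 months its log2 fold change was -0.07 (adjusted p = 0.66). Cacnb1 fell from 173, 229.3 and 250 CPM to 143, 181 and 219 CPM (-0.32, SE 0.066, adjusted p = 2e-04; -0.26 and under the size bound with WT and WT + IPTG pooled), while Cacnb3 and Cacnb4 were not called. Cacna2d3 fell from 185, 234 and 268 CPM to 152, 179 and 190 CPM (-0.40, SE 0.0625, adjusted p = 8e-07), and its 6-month value of -0.25 (adjusted p = 0.00068) lay just under the size bound. Cacna2d1, a binding site of gabapentin, rose from 55.8, 62.6 and 70.9 CPM to 61.9, 76.1 and 117 CPM (0.33, SE 0.0864, adjusted p = 0.0041), but fell under the size bound without LacQ140 M3 (0.24, adjusted p = 0.035). Cacna2d2 and Cacna2d4 were called at neither age, although Cacna2d4 at 6 months (-0.262, adjusted p = 0.034) passed on p and just missed on size.

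None of the 5 kinase genes was called at 6 months and 3 were at 12 months. Camk4, a nuclear kinase that acts on CREB, fell from 396, 461 and 506 CPM to 234, 315 and 409 CPM (-0.56 on the log2 scale, SE 0.0692, adjusted p = 2.2e-09), with the groups meeting at their edges. Camk2b fell from 1190, 1390 and 1650 CPM to 1010, 1080 and 1200 CPM (-0.36, SE 0.0446, adjusted p = 2e-09), also meeting at the edges. Camk2a had a log2 fold change of -0.24 (adjusted p = 0.0017), under the size bound, and Camk2g one of 0.05. Camk2d rose, from 19.7, 26.8 and 40.4 CPM to 30.6, 36.4 and 70.5 CPM (0.45, SE 0.134, adjusted p = 0.013). The value of 70.5 CPM again came from LacQ140 M2, and without that library the rise was 0.30 and was not called (adjusted p = 0.12).

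All 3 genes that rose at 12 months are among the 11 with lower levels in striatum than in cortex, and cortical projection neuron markers were higher in the same comparison (3 of 7 called, median log2 fold change 1.14, summed level 30.1 to 354 CPM in LacQ140 and 20.7 to 99.3 CPM in WT + IPTG, medians 34.7 and 32). Without LacQ140 M2, 2 of the 7 were called and the median log2 fold change was 0.13. Each library's summed cortical marker level was also used as a covariate, an alternative chosen after seeing the data. All 17 genes were called in that fit, and Camk2a as well (-0.265). Atp2b4 was at 0.34 (0.47 without the covariate, adjusted p = 0.0075) and Camk2d at 0.30 (0.45 without it, adjusted p = 0.009). Cacna2d1 was at 0.34 (adjusted p = 0.0034) and Ryr1 at -2.05. At 6 months the fit called Cacna2d3 and Cacna2d4 in addition. LacQ140 M2 had the highest covariate value (354 CPM, the next library 144 CPM), and without that library Camk2d was not called. The source of the rises was not tested.

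The striatal effect was more negative at 12 than at 6 months for several genes, as a test of the difference between ages showed. Of the 33 genes, 9 had a striatal LacQ140 effect that was more negative at 12 months (2.07% of all genes were called in this test) and none was called as less negative. They were Ryr1 (difference in log2 fold change -0.94, SE 0.183, adjusted p = 5e-04), Cacnb2 (-0.57, SE 0.103, adjusted p = 0.00012), Cacna1c (-0.51, SE 0.111, adjusted p = 0.0033), Itpr3, Cacna1i, Atp2b1, Camk4, Atp2b2 and Camk2b. For Cacna1c, Cacna1i and Itpr3 the sign changed between ages, from 0.21, 0.18 and 0.06 at 6 months (none called) to -0.29, -0.23 (not called) and -0.40. The WT + IPTG control itself differed from WT for Cacna1c and Cacna1i, though neither was called. These differences were -0.195 and -0.197 at 6 months and 0.088 and 0.225 at 12 months. Their part in the age differences was not tested. The age difference of Cacna1i was not called with sex and replicate number as a block (adjusted p = 0.055).

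In cortex none of the 33 genes was called in LacQ140 against WT + IPTG at either age. At 6 months 0.881% of all genes were called (0.378% higher, 0.503% lower) and at 12 months 0.0899% (0.0232% higher, 0.0667% lower). At an unadjusted p below 0.05 there was 1 gene at 6 months and 2 at 12 months, and DESeq2 also called 0. Log2 fold changes lay between -0.21 and 0.10 at 6 months and between -0.11 and 0.30 at 12 months. Ryr1 was at 4.48, 7.10 and 9.75 CPM in cortical WT + IPTG and at 5.08, 7.53 and 10.4 CPM in LacQ140 at 6 months, and at 1.61, 2.34 and 3.91 against 1.65, 2.58 and 5.46 CPM at 12 months. Choroid plexus markers had a higher median sum in 12-month cortical LacQ140 libraries (566 CPM, range 6.43 to 1100) than in WT + IPTG (18 CPM, range 2.38 to 1320), with none of the 4 markers called, and their part in the cortical values was not tested.

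A test of the difference between regions found the LacQ140 effect more negative in striatum for Ryr1 at 6 months (difference in log2 fold change -1.23, SE 0.197, adjusted p = 1.9e-05), where 0.653% of all genes were called and no other of the 33. At 12 months 8 genes were called (2.53% of all genes): Ryr1 (-2.29, SE 0.206, adjusted p = 1.5e-16), Itpr1 (-0.79, SE 0.18), Atp2b1 (-0.69, SE 0.135), Cacnb2 (-0.59, SE 0.102), Camk2b (-0.57, SE 0.144), Cacna1e (-0.51, SE 0.116), Camk4 (-0.50, SE 0.0998) and Cacna2d3 (-0.41, SE 0.101), all more negative in striatum. The length slopes of the 12-month libraries given above differ between the tissues, and their part in these differences was not tested. For Atp2b1 the cortical value was -0.03 ± 0.104 (SE), for Itpr1 0.03 ± 0.13 and for Ryr1 0.21 ± 0.164.

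**Figure D3:**
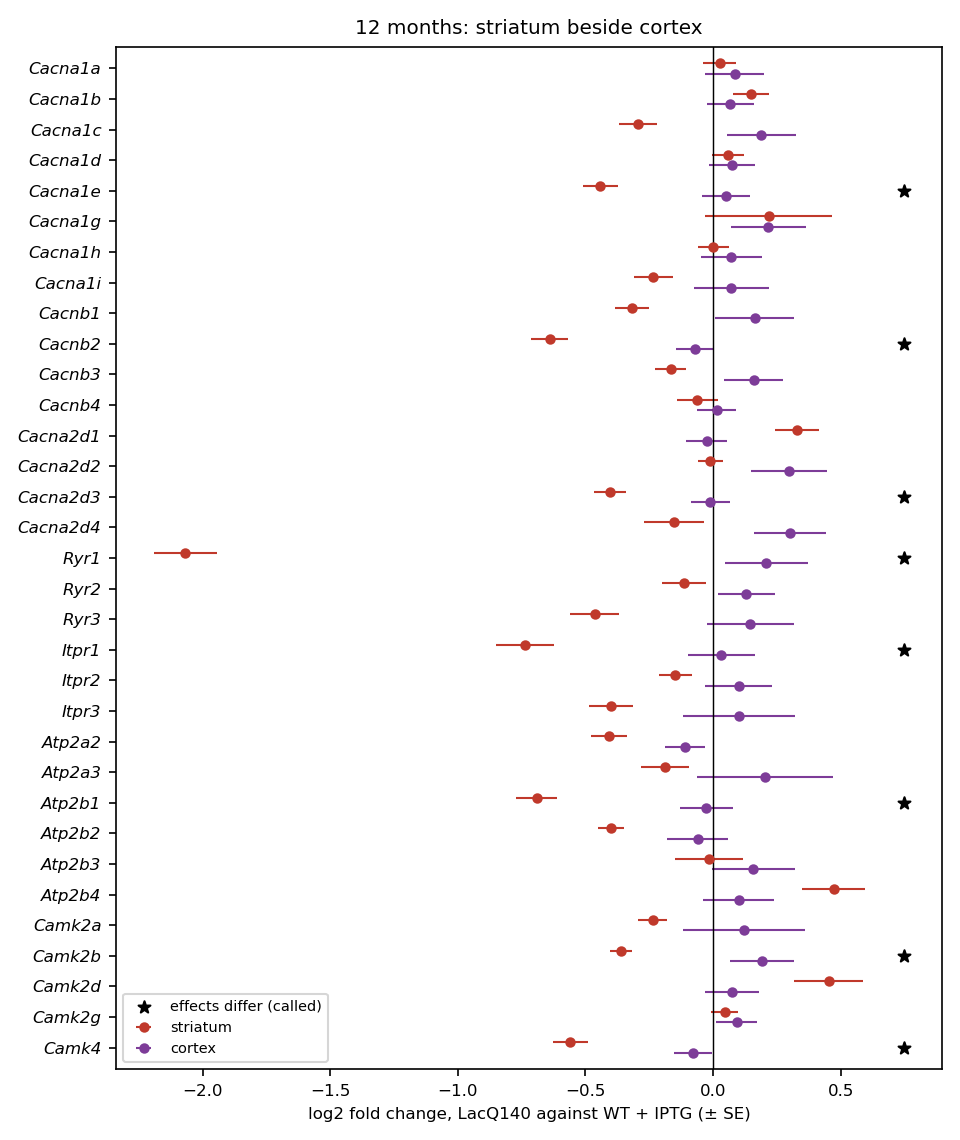
Log2 fold change of LacQ140 against WT + IPTG at 12 months for each of the 33 genes in striatum (red) and cortex (purple); bars are ± 1 SE and stars mark the 8 genes whose effect differed between regions. Cortical values lie between -0.11 and 0.30, and Ryr1 shows the widest gap.

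The genes that fell were mostly those normally higher in striatum. Of the 16 genes higher in striatum than in cortex at 6 months, 12 fell and none rose in 12-month LacQ140 striatum (median log2 fold change -0.405). Of the 11 genes lower in striatum, 1 fell (Itpr3) and 3 rose (median 0.03), and of the 6 not called, 1 fell (Atp2b2). Among genes above 1 CPM in general, 19.7% of the 3825 higher in striatum fell and 6.09% rose, and 9.19% of the 3253 lower in striatum fell and 14.5% rose, so the same direction was present outside the calcium genes. Across the 33 genes the regional log2 ratio and the 12-month effect had a Pearson r of -0.63 and a Spearman rho of -0.66 (-0.61 and -0.63 over 32 genes without Ryr1), against -0.32 and -0.18 over 14427 genes above 1 CPM. These are descriptions across genes, which are not independent replicates. The axes come from different mice and share no library, but they share the counting and the gene's length. The 4 of the 16 that were not called were Cacna2d2 and Cacna1h, with striatal levels 1.95 and 1.425 log2 units above cortex and 12-month effects of -0.01 and 0.001, and Cacna2d4 and Cacna1i, with effects of -0.15 and -0.23.

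**Figure D4:**
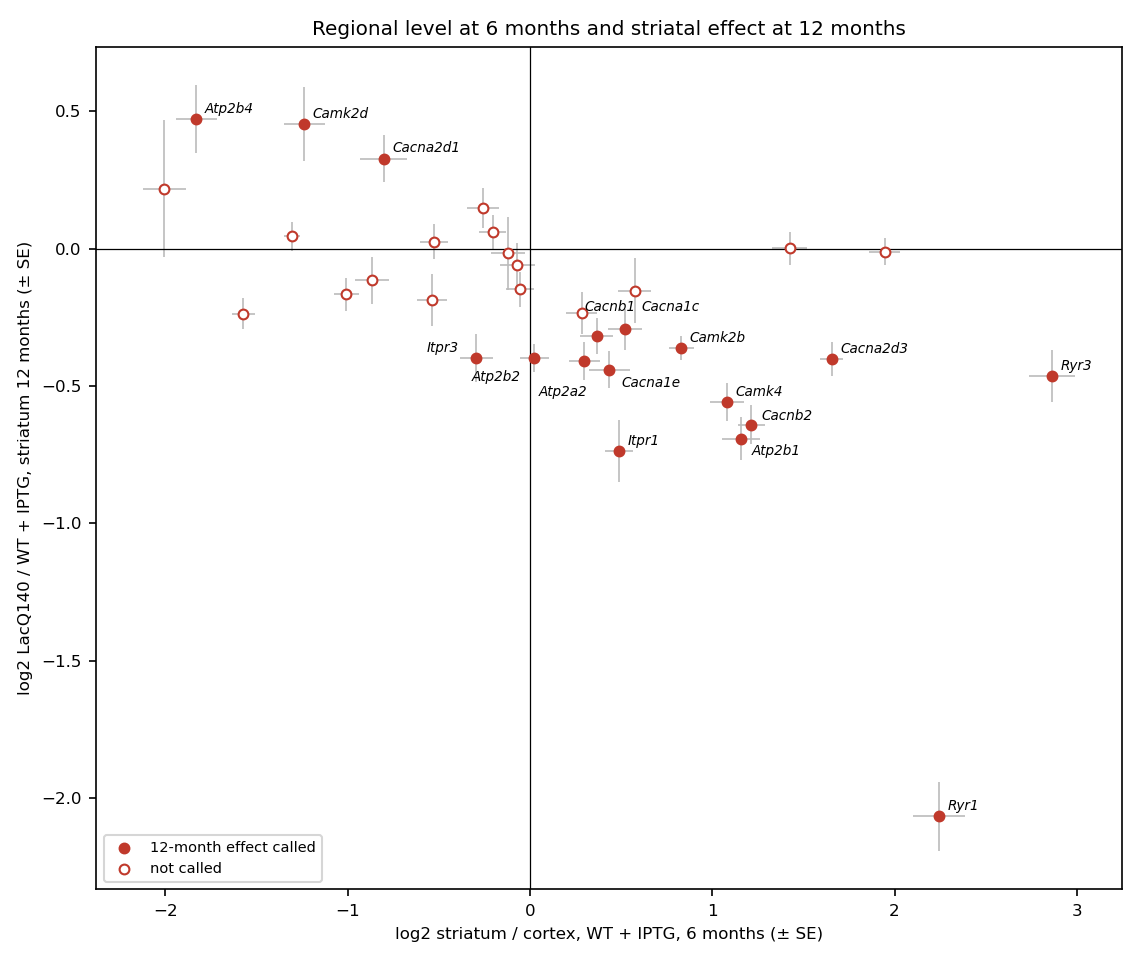
For each of the 33 genes, the log2 ratio of striatum to cortex in 6-month WT + IPTG mice (x axis) and the log2 fold change of LacQ140 against WT + IPTG in 12-month striatum (y axis), both ± 1 SE; filled, named points were called on the y axis. Most genes right of 0 lie below 0, and the 3 genes that rose (Atp2b4, Camk2d, Cacna2d1) lie left of 0.

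IPTG itself was checked in wild-type mice. WT + IPTG against WT called none of the 33 genes in 6-month striatum (0.584% of all genes), 12-month striatum (0.218%), 6-month cortex (0.609%) or 12-month cortex (0% of all genes), and DESeq2 called none either. At an unadjusted p below 0.05 there were 5, 4, 6 and 2 genes. In striatum 8 of the 33 genes had a log2 fold change above 0 at 6 months (median -0.057) and 27 at 12 months (median 0.068). The medians of genes above 1 CPM were -0.009 and 0.01. With WT and WT + IPTG pooled as control, LacQ140 called 15 of the 33 genes in 12-month striatum in place of 17. The part of IPTG in the values of LacQ140 against WT + IPTG was not tested. Ryr1 in striatum differed by -0.04 ± 0.124 (log2, SE) at 6 months and by 0.10 ± 0.115 at 12 months.

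Mice in which the mutant allele was repressed from conception were compared with WT mice that also had no IPTG, a comparison that shares no library with LacQ140 against WT + IPTG. In 6-month striatum, LacQ140_A against WT called none of the 33 genes (0.91% of all genes; 1 gene at an unadjusted p below 0.05, 0 in DESeq2). Ryr1 was at 24, 31 and 43.3 CPM in LacQ140_A and at 26.4, 34.2 and 48.2 CPM in WT (-0.13 on the log2 scale, SE 0.124, adjusted p = 0.75). The 2 ranges almost coincided.

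At 12 months 8 genes were lower in LacQ140_A than in WT striatum (3.15% of all genes were called), and none was higher. Spiny projection neuron markers were lower in the same comparison (9 of 10 called), with sums of 6150 to 8020 CPM in LacQ140_A and 9640 to 11100 CPM in WT, and cortical projection neuron markers had median sums of 49 and 24.3 CPM (1 of 7 called, higher). Their part in the values was not tested. The calcium genes were Ryr1 (9.77, 16.5 and 27.4 CPM against 25.9, 30.3 and 38.5 CPM in WT, log2 fold change -0.92, SE 0.118, adjusted p = 2.3e-08), Atp2b1 (-0.51, SE 0.0786, adjusted p = 2.3e-06), Itpr1 (-0.49, SE 0.111, adjusted p = 0.0021), Cacnb2 (-0.47, SE 0.0708), Camk4 (-0.46, SE 0.0687), Cacna2d3 (-0.35, SE 0.0622), Cacna1e (-0.35, SE 0.067) and Atp2b2 (-0.29, SE 0.0509). All 8 are among the 14 that fell in LacQ140. The other 6 of the 14 also had log2 fold changes below 0 in LacQ140_A, and for all 14 the size was smaller than in LacQ140. That difference was not tested gene by gene. The 14 were picked by their call in LacQ140 and the controls differ, so the sizes do not measure an effect of lowering. In LacQ140_A against LacQ140 at this age only Ryr1 was called, and 15 of the 33 genes had a log2 fold change above 0 (median -0.02). In cortex LacQ140_A against WT called none at 6 months (0.425% of all genes) or 12 months (0.0174%), with 2 and 1 genes at an unadjusted p below 0.05 and 0 in DESeq2.

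**Figure D5:**
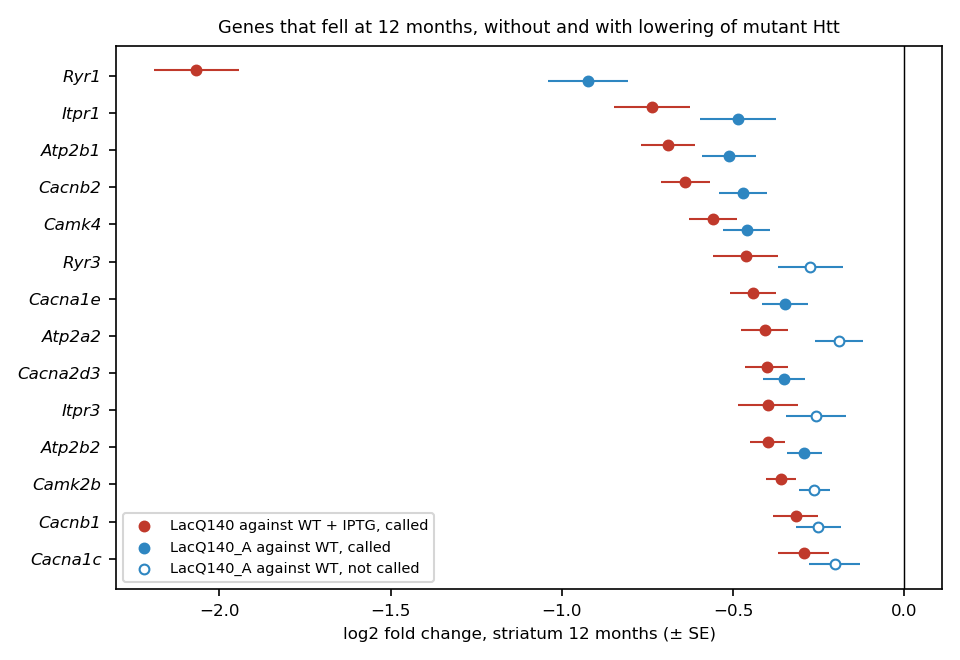
Log2 fold change in 12-month striatum, with bars of ± 1 SE, for the 14 genes that fell in LacQ140: LacQ140 against WT + IPTG in red and LacQ140_A against WT in blue, filled where called. For each gene the blue point lies nearer 0, from -2.07 to -0.92 for Ryr1. The genes were picked by their red values, and the controls of the red and blue comparisons differ.

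The lowered groups were also set against LacQ140 itself. These comparisons share the LacQ140 libraries with the main comparison and with each other, so their values are given side by side only. In 6-month striatum, 5 of the 33 genes were higher in LacQ140_A (1.88% of all genes were called) and 4 in LacQ140_2M (1.26%), and none was lower. Spiny projection neuron markers were also higher, with 9 and 8 of 10 called and sums of 7760 to 10000 CPM in LacQ140_A and 7420 to 8590 CPM in LacQ140_2M against 5560 to 7250 CPM in LacQ140. Microglia markers summed to 401 to 461, 360 to 450 and 347 to 418 CPM in the same order and endothelial markers had median sums of 200, 196 and 174 CPM, with none of either list called. The part of these shifts was not tested. Ryr1 was higher by 1.04 in LacQ140_A (SE 0.127, adjusted p = 3.8e-08) and by 0.75 in LacQ140_2M (SE 0.127, adjusted p = 0.00013, 18.7, 24.8 and 35.3 CPM). Itpr1 was higher by 0.37 and 0.32, Atp2b1 by 0.285 and 0.31, and Camk4 by 0.27 and 0.29. Cacna2d4 was called in LacQ140_A alone (0.30, adjusted p = 0.043), a call lost with sex and replicate number as a block (adjusted p = 0.063). With the transcript length slope as a covariate, Itpr1, Atp2b1 and Camk4 in LacQ140_2M fell under the size bound (0.26, 0.25 and 0.24) and 1 gene, Ryr1, remained called.

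In the same comparisons in 12-month striatum, 4 and 5 of the 10 spiny projection neuron markers were higher in LacQ140_A and LacQ140_2M. In LacQ140_A 1 gene was higher, Ryr1 (0.91% of all genes, log2 fold change 1.04, SE 0.125, adjusted p = 1.5e-08). In LacQ140_2M 3 were higher (0.608% of all genes): Ryr1 (0.79, SE 0.126, adjusted p = 4.5e-05), Cacnb2 (0.30, SE 0.0713, adjusted p = 0.016) and Itpr3 (0.34, SE 0.0874, adjusted p = 0.035, lost with sex and replicate number as a block at 0.071). Itpr1, at 399, 592 and 877 CPM in LacQ140_A, differed from LacQ140 by 0.04 ± 0.111 (SE).

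Withdrawal at 8 months called none of the genes in 12-month striatum (0.00565% of all genes; 9 genes at an unadjusted p below 0.05, 0 in DESeq2). Total Htt did not pass the test either (-0.001, SE 0.0709, adjusted p = 1, and 111 CPM in both groups). Ryr1 was at 8.93, 10.5 and 14.3 CPM in LacQ140_8M against 6.28, 7.93 and 10.4 CPM in LacQ140, a difference of 0.465 on the log2 scale (SE 0.13, unadjusted p = 0.000633, adjusted p = 0.62). A log2 fold change above 0 was found for 28 of the 33 genes (median 0.12). The same count was 15 in LacQ140_A (median -0.02) and 22 in LacQ140_2M (median 0.08) at this age. Spiny projection neuron markers summed to 5450 to 6850 CPM in LacQ140_8M and to 5040 to 6210 CPM in LacQ140. Their part in the values was not tested. LacQ140_2M against LacQ140_8M called none (0.0933% of all genes; 5 genes at an unadjusted p below 0.05, 0 in DESeq2), and Ryr1 differed by 0.32 ± 0.123 (SE). A p that misses the threshold does not show that the 2 withdrawal times act alike.

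In cortex, none of the 33 genes was called in LacQ140_A against LacQ140 at 6 months (0.00834% of all genes) or 12 months (0.0435%), in LacQ140_2M at 6 months (0%) or 12 months (0.0841%), or in LacQ140_8M at 12 months (0%). At an unadjusted p below 0.05 there were 4, 3, 4, 0 and 0 genes, and DESeq2 called 0 in each.

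A list of 40 other calcium genes was read alongside, covering calmodulins, buffers, exchangers, the mitochondrial uniporter, store-operated channels, calcineurin and the smaller calcium kinases and sensors. In striatum 7 fell and 1 rose at 6 months (20% of the list, median log2 fold change -0.07), and 12 fell and 2 rose at 12 months (35%, median -0.135). The shares of genes above 1 CPM called in the same comparisons were 15.5% and 17.8%, so the 6-month share was near that of expressed genes. At 6 months the falls with the smallest adjusted p were in the CaMKII inhibitor Camk2n1 (-0.39, SE 0.046), the kinase kinase Camkk2 (-0.38, SE 0.0652) and the calcineurin catalytic subunit Ppp3ca (-0.29, SE 0.0504), and the store-operated channel Orai2 rose (0.32, SE 0.0706). At 12 months the falls with the smallest adjusted p were in Camkk2 (-0.63, SE 0.0537), the sensor hippocalcin (Hpca, -0.74, SE 0.0665) and Ppp3ca (-0.60, SE 0.0543), and the fall of greatest size, named after its value was seen, was in the kinase Camk1g (-1.11, SE 0.12), while the mitochondrial uptake regulator Micu2 (0.32, SE 0.0548) and the CaMKII inhibitor Camk2n2 (0.35, SE 0.118) rose. In cortex 1 gene fell at each age, Itpkb at 6 months (-0.27, SE 0.0659) and Camk2n1 at 12 months (-0.45, SE 0.1).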

How the data were processed

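Striatum and cortex were profiled by paired-end RNA sequencing. Per the labels, total RNA was extracted with a Qiagen kit and reads were processed against GRCm38. The authors deposited expected counts per gene (estimated counts that need not be whole), 1 table per age with both tissues. The aligner, the counter, the annotation and the strandedness are not given in the sources used here. Expected counts were rounded, and genes with at least 1 count were fitted by group, all groups of a tissue and age together, with edgeR 4.0.16 (R 4.3.3) by the quasi-likelihood F-test with TMM scaling. Comparisons between tissues or ages fitted the libraries of both together. Called means a Benjamini-Hochberg adjusted p below 0.05 over all genes with a change of 20% or more in fold. SE is the log2 fold change divided by the square root of F. CPM per kb uses union exon length (GENCODE). Named genes are all 33 members, and of the other calcium genes the 3 risen and 3 fallen with the smallest adjusted p per striatal comparison. Pvalb and Camk1g in striatum and Itpkb and Camk2n1 in cortex were named outside this rule. Members and lists were chosen with earlier results of these data known. Fits were tested on simulated data. No 2 libraries agreed within sampling noise (963 pairs within groups, lowest chi-square per degree of freedom 6.5), and sex-linked genes matched the sex labels in all 217 libraries. Both tissues come from the same mice: deviations from group means correlated at 0.242 (6 months) and 0.181 (12 months) within a mouse, against -0.026 and -0.019 between mice. Alternatives were DESeq2 1.42.0, its size factors, filterByExpr, sex, length slope or cortical markers as covariates, a replicate block, pooled controls, only the groups compared, no size bound, and leaving out each library.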

Additional observations from a re-analysis of the deposited data

Results flagged for a closer look

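Of 61 sets of striatal values (1 gene in 1 group) behind the called differences, 4 held a library far from the rest by Dixon's criterion, where chance gives about 1 in 20. For Camk2d at 12 months, LacQ140 M2 was at 70.5 CPM and the next library at 42.5 CPM (gap over range 0.702). For Atp2b4 at 6 months, LacQ140 F1 was at 79.3 against 67.8 CPM (0.492). Cacna1e at 12 months was at 171 CPM in WT + IPTG F3, against 206 CPM in the next library (0.474). Ryr1 at 12 months was at 27.4 CPM in LacQ140_A M3, against 18.9 CPM (0.486).

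The LacQ140 effect differed between regions and between ages by a test of the difference. Between striatum and cortex the differences in log2 fold change were -1.23 for Ryr1 at 6 months, and at 12 months -2.29 for Ryr1, -0.79 for Itpr1, -0.69 for Atp2b1, -0.59 for Cacnb2, -0.57 for Camk2b, -0.51 for Cacna1e, -0.50 for Camk4 and -0.41 for Cacna2d3. Between 12 and 6 months in striatum they were -0.94 for Ryr1, -0.57 for Cacnb2, -0.51 for Cacna1c, -0.46 for Itpr3, -0.42 for Cacna1i, -0.40 for Atp2b1, -0.38 for Camk4, -0.31 for Atp2b2 and -0.30 for Camk2b.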

How the results depend on the processing

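Of the counts of genes recomputed under alternatives, 237 stayed within 1.5 times the reported count and 6 did not. Without the bound on fold change, the 6-month striatal count in LacQ140 against WT + IPTG went from 6 to 10 and that in LacQ140_A against LacQ140 from 5 to 8. With the length slope as a covariate, LacQ140_2M against LacQ140 in 6-month striatum went from 4 to 1 and LacQ140_A against LacQ140 in 12-month striatum from 1 to 2. With only the compared groups fitted, LacQ140_A against LacQ140 in 12-month cortex went from 0 to 2, while the count over all genes went from 15 to 1896. The cause was not tested. Leaving out single libraries gave 3 to 8 calls in LacQ140 against WT + IPTG in 6-month striatum (3 without LacQ140 F4), 16 to 18 in 12-month striatum, and 0 in cortex. No direction reversed, and 38 of the gene values lost their call, the 6-month Atp2b4 and Atp2a2 most often.

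With sex and replicate number as a replicate block, the counts in LacQ140 against WT + IPTG were 7 and 17 in striatum at 6 and 12 months. Deviations of libraries that share a sex and number correlated by 0.062 to 0.08 on average and by as little as -0.67, so these numbers do not pair the groups. The mouse as a block in the comparisons between tissues gave 8 genes at 12 months, as without it, and 30 in place of 29 for striatum against cortex. Beyond the calls of Cacna2d4 and Itpr3 given above, the block of sex and replicate number ended the call of the age difference for Cacna1i (adjusted p = 0.055). Low-level genes such as Cacna2d4, Itpr3 and cortical Ryr1 rest on the fewest counts.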
